A study of Mus musculus with 56 samples.

Results

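Liver RNA of male MutaMouse, transgenic mice built for mutation assays, was compared between the 6 liver arrays with the highest and the 6 with the lowest level of Dbp, out of 19 liver arrays and 56 arrays in all. The 12 members were chosen by measured values. They are the extremes of a ranking of the 19 liver arrays by the authors' log2 ratio of Dbp, whatever the dose of the mouse. The adult mice, about 14 weeks of age, received chrysene by gavage once a day for 28 days and were killed 72 hours later. Chrysene is a polycyclic aromatic hydrocarbon, and the vehicle was olive oil. Group D0 received the vehicle alone, and the daily dose was 17.5 mg/kg in D1, 50 mg/kg in D2 and 150 mg/kg in D3. All mice were kept singly, fed ad libitum and held under a cycle of equal light and dark periods. The hour of the day at which each mouse was killed is not given in the sources used here. Each array held the RNA of 1 mouse in Cy5 and a universal reference RNA, pooled from mouse cell lines, in Cy3, and a value is the log2 ratio of sample over reference. In a piece of bulk liver, fewer cells of a type and less RNA per cell cannot be told apart.

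The circadian clock of a mammalian cell is a feedback loop. CLOCK and BMAL1 (the product of Arntl) bind E-box sequences and switch on the Per and Cry genes, whose products repress them, while REV-ERB and ROR receptors act on Arntl itself through RORE sequences. Dbp is a direct target of CLOCK and BMAL1 and a transcription factor in its own right, of the PAR bZIP family with Tef and Hlf. In the mouse liver its transcript swings widely with the day, in antiphase to Arntl, and it drives genes of metabolism and detoxification through D-box sequences. Liver rhythms also follow feeding and glucocorticoids.

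The values of the Dbp probe (NM_016974, gene at chr7:45705100-45710203 of GRCm38.p6) over the 19 arrays left a gap at both borders of the groups, whose sizes were fixed. The 6 high arrays read 2.13 (mouse 15), 1.92 (mouse 13), 1.16 (mouse 19), 1.09 (mouse 16), 0.98 (mouse 9) and 0.79 (mouse 18). The 7 arrays between them ran from -0.04 (mouse 10) to -0.66 (mouse 8). The 6 low arrays read -1.69 (mouse 20), -1.97 (mouse 7), -1.99 (mouse 5), -2.12 (mouse 2), -2.22 (mouse 1) and -2.28 (mouse 6). At the upper border the last array inside was mouse 18 at 0.79 and the first outside mouse 10 at -0.04. Inside the high group, mice 13 and 19 lay nearly as far from each other. At the lower border mouse 20 at -1.69 was inside and mouse 8 at -0.66 outside. The means were 1.34 ± 0.55 (SD, n = 6) and -2.05 ± 0.21 (n = 6). The spot was well above background and unsaturated on all 19 arrays, and the second Dbp probe gave values between 0.71 and 2.26 in the high and between -2.25 and -1.80 in the low arrays.

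**Figure D1:**
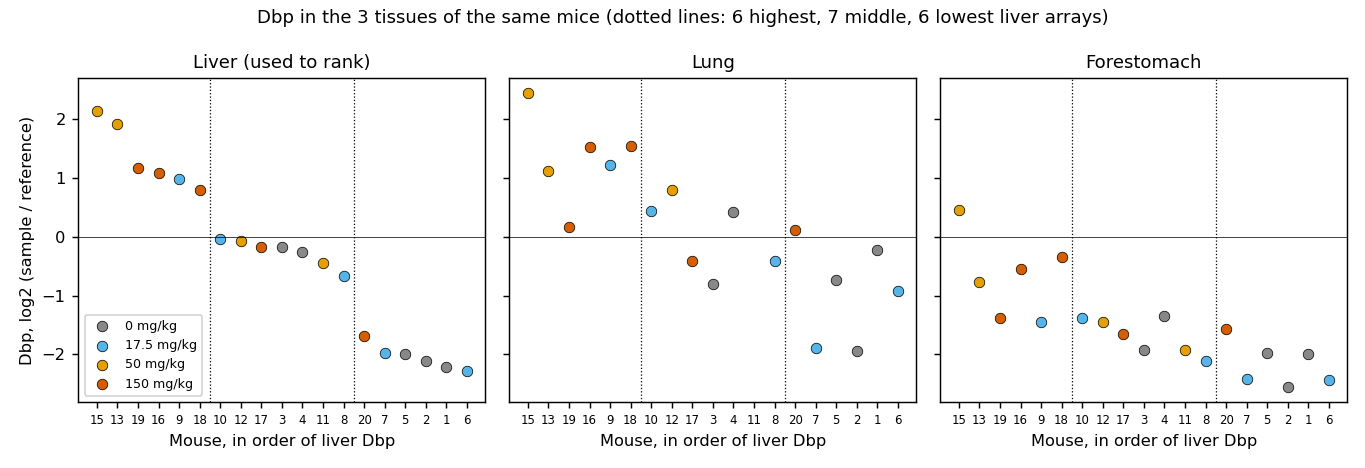
The authors' log2 ratio of Dbp in liver, lung and forestomach, 1 point per array, with mice on the horizontal axis in the order of their liver value and coloured by dose; dotted lines separate the 6 high, 7 middle and 6 low liver arrays. The liver values used for the ranking leave a gap at each dotted line and a similar gap between mice 13 and 19. The lung value of mouse 15 (2.44) is the highest of the 18 lung arrays, and mouse 11 has no lung array.

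Dose and slide were spread unevenly over the groups. The high group held 0 mice of D0, 1 of D1, 2 of D2 and 3 of D3, and the low group 3 of D0, 2 of D1, 0 of D2 and 1 of D3. A difference adjusted for dose therefore rested on D1 (mouse 9 against mice 6 and 7) and D3 (mice 16, 18 and 19 against mouse 20), that is, on 4 high and 3 low arrays, and for D0 and D2 the Dbp group cannot be told apart from the dose. Of the high arrays 1 lay on slide 1, 1 on slide 2 and 4 on slide 3, and of the low arrays 4 lay on slide 1, 2 on slide 2 and 0 on slide 3. Slide 1 was the brightest, with a Cy5 95th percentile of 3678 to 5354 against 2348 to 3315 on the other 2 slides. The share of spots well above background was 34.5% (mouse 19) to 43.1% in the high and 38.1% to 46.4% in the low arrays. The part of slide and brightness in the results below was not tested beyond the values with slide as a block.

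The liver label held in both groups. All 14 hepatocyte markers with a probe were well above background on all 19 arrays, and their mean log2 ratio was 6.55 to 6.78 in the high and 6.71 to 6.92 in the low arrays (summed ratio 2290 to 2740 and 2630 to 3060). The 10 Kupffer cell and macrophage markers ranged from 2.03 to 3.02 and from 2.70 to 3.54 (summed ratio 91 to 198 and 145 to 281), and the 10 endothelial markers from 2.17 to 2.49 and from 2.10 to 2.70 (107 to 137 and 94.2 to 145). Each of these ranges overlapped between the groups, and their part in the results was not tested. Among markers of tissues next to the liver, 4 of 7 adipocyte markers (Adipoq, Lep, Plin1 and Retn) were not well above background on any liver array, and 0 of the 7 were so on all 19. Of 12 pancreatic acinar markers 8, Cela2a, Cpa1, Cpb1 and Pnlip among them, were not well above background on any liver array and 2 were so on all 19, and the list's mean log2 ratio was 0.45 to 0.53 in the high and 0.42 to 0.59 in the low arrays.

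A gene counted as apart where all 6 high arrays lay on one side of all 6 low arrays, the higher group was well above background on every array, and the dose-adjusted difference was at least 1.5-fold. Of 10968 genes measured this way, 11 were higher (0.1%) and 29 lower (0.264%) in the high-Dbp arrays. The ranking used this contrast, so these counts and all liver differences are a description and carry no test. Members of the clock list made up 7 of the 40 genes (5 higher, 2 lower), and 33 lay beyond it (6 higher, 27 lower). For all 40 genes the mean of the 7 middle arrays lay between the means of the high and low groups. Choosing genes by the separation of the outer groups makes this likely, so it does not show that they follow Dbp. The genes nearest to the limit of 1.5-fold were Pklr (0.586 on the log2 scale, SE 0.10) just inside and Dnmt3b (-0.585, SE 0.18) and Lpin1 (0.577, SE 0.30) just outside.

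**Figure D2:**
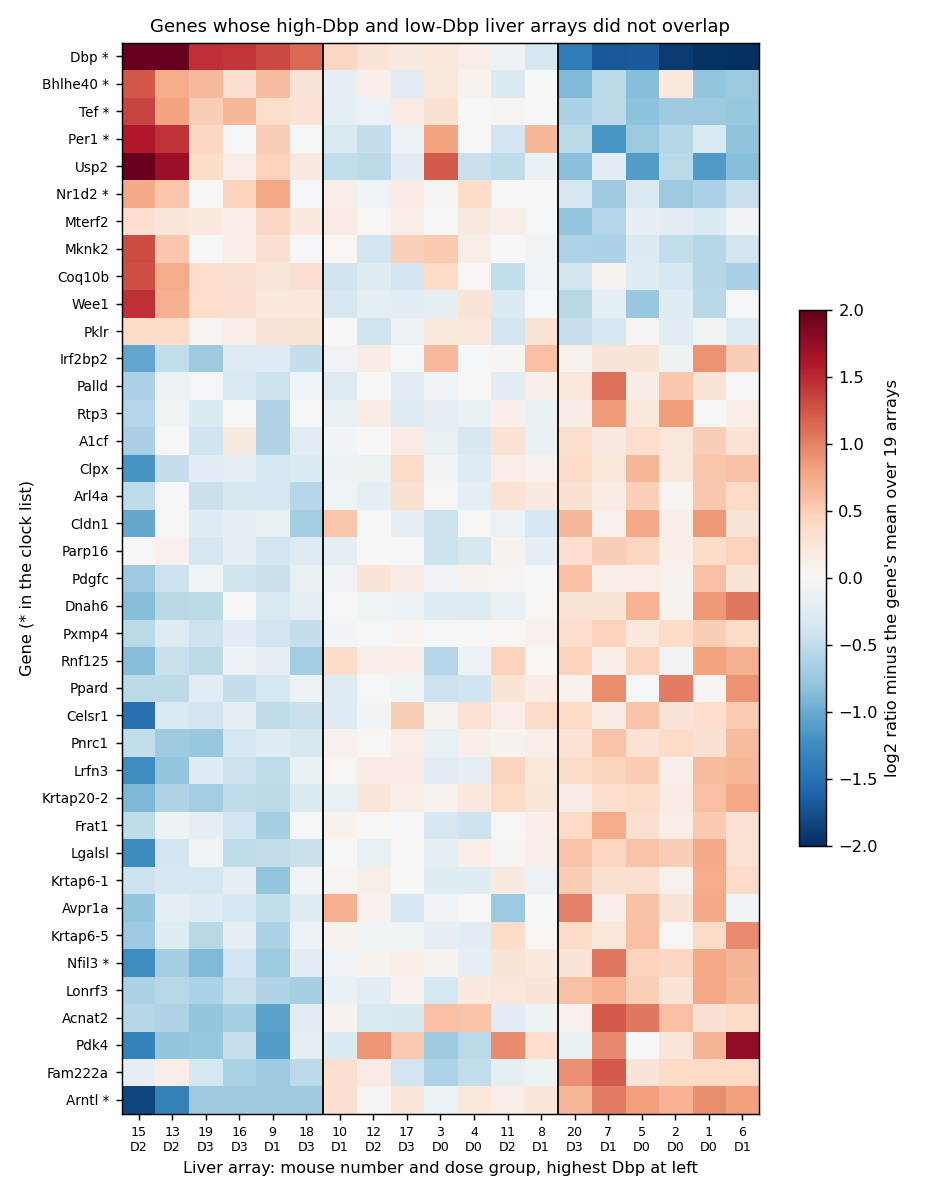
Log2 ratio of 39 genes apart in liver, each minus its own mean over the 19 arrays, with arrays in the order of Dbp and labelled by mouse and dose group; an asterisk marks the clock list and black lines the borders of the high, middle and low groups. For Arntl, mice 15 and 13 at the left are the lowest high arrays (log2 ratios of -1.31 and -0.83 against -0.20 to -0.18 in the other 4), whereas for Fam222a they are the highest (1.94 and 2.24 against 1.39 to 1.75).

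Promoters are shown here for genes whose letters bear on how the clock is known to act. RefSeq (GRCm38.p6) gave windows from 250 bases before to 50 after the start for 35 of these genes, 44 windows in all. The E-box CACGTG, the same on both strands, was in 5 of the 44 (4 of 13 for genes higher and 1 of 31 for genes lower in the high arrays) and in 7.15% of all 32851 promoters. The RORE-like letters TAGGTCA, on either strand, were in 4 of the 44 (1 of 13 and 3 of 31) and in 2.61% of all promoters. A D-box (TTATGTAA, TTACATAA or TTACGTAA) was in 1 of the 44 and in 1.06% of all. None of these motifs share letters in the windows below, where capitals mark the match. A match describes the letters alone. Per1 (chr11:69098699-69098998, plus strand) and Coq10b (chr1:55052520-55052819, plus strand), both higher in the high-Dbp arrays, held an E-box, at -166 and -78 from the start, and Coq10b also a D-box at -162. Lonrf3 (chrX:36328159-36328458, plus strand), which was lower, held an E-box at -45. Arntl (chr7:113207261-113207560, plus strand) and Nfil3 (chr13:52980990-52981289, minus strand), both lower, held the RORE-like letters, at 31 and -12.
Per1: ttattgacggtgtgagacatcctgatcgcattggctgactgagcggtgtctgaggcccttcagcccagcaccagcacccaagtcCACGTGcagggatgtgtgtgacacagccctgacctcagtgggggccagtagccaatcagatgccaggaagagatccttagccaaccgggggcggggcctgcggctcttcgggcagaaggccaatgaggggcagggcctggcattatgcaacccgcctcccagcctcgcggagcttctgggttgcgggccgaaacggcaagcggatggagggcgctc
Coq10b: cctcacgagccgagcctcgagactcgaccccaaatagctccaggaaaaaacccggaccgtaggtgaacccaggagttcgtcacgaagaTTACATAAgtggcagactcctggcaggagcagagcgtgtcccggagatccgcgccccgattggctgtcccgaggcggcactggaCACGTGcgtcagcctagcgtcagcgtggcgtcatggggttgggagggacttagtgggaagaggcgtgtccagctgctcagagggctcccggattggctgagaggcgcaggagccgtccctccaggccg
Lonrf3: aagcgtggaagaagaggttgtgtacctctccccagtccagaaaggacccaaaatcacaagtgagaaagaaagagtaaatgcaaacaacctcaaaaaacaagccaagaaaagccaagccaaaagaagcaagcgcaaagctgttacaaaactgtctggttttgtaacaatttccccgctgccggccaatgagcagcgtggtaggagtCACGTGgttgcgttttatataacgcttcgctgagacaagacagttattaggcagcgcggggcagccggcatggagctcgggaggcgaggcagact
Arntl: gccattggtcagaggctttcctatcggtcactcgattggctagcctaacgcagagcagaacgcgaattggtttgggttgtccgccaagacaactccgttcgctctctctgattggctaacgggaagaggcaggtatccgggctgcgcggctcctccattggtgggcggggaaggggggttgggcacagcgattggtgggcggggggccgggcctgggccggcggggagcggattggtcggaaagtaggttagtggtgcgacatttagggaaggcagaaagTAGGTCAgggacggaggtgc
Nfil3: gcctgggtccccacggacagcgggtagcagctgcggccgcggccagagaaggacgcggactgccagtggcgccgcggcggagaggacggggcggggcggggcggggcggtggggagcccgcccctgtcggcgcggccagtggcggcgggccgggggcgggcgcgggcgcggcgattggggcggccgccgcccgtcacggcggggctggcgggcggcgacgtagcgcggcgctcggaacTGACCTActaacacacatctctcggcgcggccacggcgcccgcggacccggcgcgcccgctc

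Tef carried an E-box in both of its windows, and Pklr and Parp16 carried the RORE-like letters. No match was found in the windows of Dbp, Usp2, Mknk2, Mterf2, Pdk4, Nr1d2, Acnat2, Avpr1a, Clpx, Fam222a, Ppard or Cldn1. Per1, Arntl and Pklr each had a second window, without a match. Wee1, Bhlhe40, Celsr1 and Rnf125 were not matched to a window.

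Among the 25 clock genes listed, 18 were measured in liver, and Dbp itself differed by 2.96 (dose-adjusted log2 difference, SE 0.15) and by 3.45 without adjustment. Tef, the second PAR bZIP factor, read 0.70 to 1.76 in the high and -0.41 to -0.11 in the low arrays, a dose-adjusted difference of 1.06 (SE 0.15). Hlf, the third of the family, overlapped, with means of 2.59 ± 0.34 and 2.57 ± 0.17 (SD, n = 6 each). Arntl, the positive limb of the clock, read -1.31 to -0.18 in the high and 1.19 to 1.54 in the low arrays (difference -1.50, SE 0.13). Its partner Clock overlapped, with a difference of -0.26 (SE 0.11). Of the repressors, Per1 read 0.46, 0.31, -0.73, -1.13, -0.65 and -1.17 in the high arrays (mice 15, 13, 19, 16, 9 and 18) and between -2.30 and -1.45 in the low ones (difference 1.04, SE 0.19). The D2 mice 15 and 13 were the 2 highest arrays for Per1, whereas the middle arrays of mice 3 (-0.34) and 8 (-0.48) lay above 4 of the 6 high arrays. Cry2 differed without overlap but by less than 1.5-fold (0.48, SE 0.11), and Per2 overlapped (0.41, SE 0.31). Nr1d2, which encodes REV-ERB beta, was apart by 0.90 (SE 0.20), and Nr1d1, which encodes REV-ERB alpha, differed by 1.01 (SE 0.32) but overlapped, since the high array of mouse 19 read 1.30 and the low arrays of mice 1 and 5 read 1.57 and 1.33. Bhlhe40, a repressor of E-box genes, was higher by 1.28 (SE 0.26), and Nfil3, a repressor at D-boxes, differed by -1.16 (SE 0.24). Rora, Csnk1d, Csnk1e and Timeless overlapped, with differences between -0.19 and 0.27.

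Over all 19 liver arrays, with the mean of each dose group taken out, the genes whose pattern was most like that of Dbp were Tef (Pearson r 0.938), Cry2 (0.911), Pklr (0.886), Bhlhe40 (0.882) and Nr1d2 (0.882). The most opposed were Arntl (-0.943), Pxmp4 (-0.938), Pnrc1 (-0.926), Lonrf3 (-0.924) and Nfil3 (-0.913). These r values describe the arrays that the ranking used, which share slides and doses. Without taking out the dose means, Pklr dropped to 0.66 and the other 9 genes lay at 0.876 or more in size.

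Beyond the clock, 6 genes were higher in the high-Dbp arrays. Usp2 (chr9:44067021-44095627), a deubiquitinating enzyme that acts on clock proteins, had the largest difference, 1.03 (dose-adjusted, SE 0.29) and 1.75 unadjusted. Its high arrays read 2.76 and 1.51 in mice 15 and 13 and between -0.06 and 0.26 in the other 4, and its low arrays -1.33 to -0.43. Without mice 13 and 15, left out after the data were seen, the unadjusted difference of Usp2 was 1.07, and the middle array of mouse 3 read 1.03, above the same 4 high arrays. Mterf2 (chr10:85119433-85128027), a factor of mitochondrial transcription, read -0.16 to 0.16 in the high and -1.05 to -0.31 in the low arrays (difference 0.85, SE 0.13). Mknk2 (chr10:80665318-80676293), a kinase of the translation factor eIF4E, read -0.18 to 1.15 against -0.79 to -0.43 (0.74, SE 0.17). Its lowest high array was mouse 18 and its highest low array mouse 5. Coq10b (chr1:55052770-55072702), which binds coenzyme Q in mitochondria, read 0.99 to 2.03 against 0.09 to 0.81 (0.62, SE 0.19). Wee1 (chr7:110122059-110143299), a kinase that holds back entry into mitosis, read -1.08 to 0.17 against -2.04 to -1.31 (0.60, SE 0.20). Pklr (chr3:89136122-89146815), the pyruvate kinase of liver glycolysis, read 3.17 to 3.50 against 2.65 to 3.17 and was the closest of the 6, with mouse 19 at the bottom of the high and mouse 5 at the top of the low arrays. With the slide as a fixed block, Usp2 (0.41), Mknk2 (0.43), Coq10b (0.46) and Wee1 (0.20) differed by less than 1.5-fold, and Mterf2 (0.70) had the largest difference of the 6, followed by Pklr (0.60).

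More genes beyond the clock were lower than higher, 27 against 6. Over all genes apart, the split of 11 higher and 29 lower became 62 and 54 with the D3 arrays left out, 26 and 31 with 5 arrays a group, 2 and 22 under median centring and 10 and 14 under normexp background correction. Fam222a (chr5:114568251-114613220) read 1.39 to 2.24 in the high and 2.36 to 3.33 in the low arrays, a dose-adjusted difference of -1.47 (SE 0.18) and an unadjusted difference of -0.98. Pdk4 (chr6:5483351-5496278), the kinase that shuts off pyruvate dehydrogenase in fasting, read 0.09 to 1.25 against 1.29 to 3.21 (-1.35, SE 0.41). The groups of Pdk4 nearly met, and its difference was -2.49 within D1 and -0.33 within D3. Acnat2 (chr4:49374458-49408151), an acyl-CoA:amino acid N-acyltransferase, read 3.58 to 4.42 against 4.74 to 5.88 (-1.22, SE 0.30), with -1.87 within D1 and -0.65 within D3. Without mouse 9 these differences rest on D3 alone, and without mouse 20 on D1 alone. Lonrf3 (chrX:36328358-36366857), a protein with a LON domain and RING fingers, had a smaller SE than Fam222a, Pdk4 and Acnat2. Its high arrays read -0.96 to -0.73 and its low arrays -0.02 to 0.48 (-1.22, SE 0.12), and the 7 middle arrays, at -0.64 to -0.04, lay wholly between them.

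Avpr1a (chr10:122448499-122453453), the vasopressin receptor of hepatocytes, read 4.19 to 4.79 against 4.92 to 5.99 (-0.92, SE 0.20). On chromosome 16, 3 genes of the keratin-associated protein family, Krtap6-5 (-0.94, SE 0.23), Krtap6-1 (-0.90, SE 0.16) and Krtap20-2 (-0.86, SE 0.17), were lower in the high arrays. These are genes of the hair shaft with near copies beside them, so which member gave the signal is uncertain, and Krtap6-1 was well above background on 3 of the 6 high arrays. Lgalsl, a galectin-like protein (-0.88, SE 0.20), Frat1, an inhibitor of the kinase GSK3 (-0.87, SE 0.18), and Lrfn3, a synaptic adhesion protein (-0.84, SE 0.17), also read lower in the high arrays.

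The remaining 15 lower genes, named after their values were seen, had differences between -0.80 and -0.60. Pnrc1, a coactivator of nuclear receptors, differed by -0.80 (SE 0.12), Ppard, a lipid-sensing nuclear receptor, by -0.77 (SE 0.27), and Pxmp4, a peroxisomal membrane protein, by -0.76 (SE 0.11). Pxmp4 read 2.75 to 3.08 in the high, 3.24 to 3.38 in the middle and 3.50 to 3.78 in the low arrays, 3 ranges without overlap. Ppard read -1.30 to -0.89 in the high arrays, whereas its low arrays fell into 3 at 0.13 to 0.26 (mice 2, 6 and 7) and 3 at -0.80 to -0.69 (mice 1, 5 and 20). The others included Clpx, an unfoldase of the mitochondrial protease (-0.68, SE 0.18), A1cf, a cofactor of apolipoprotein B RNA editing (-0.67, SE 0.19), Cldn1, a tight junction protein (-0.70, SE 0.29), Rnf125, a ubiquitin ligase (-0.77, SE 0.24), Celsr1, a cell polarity cadherin (-0.79, SE 0.25), and Pdgfc, a growth factor (-0.73, SE 0.15). With the slide as a fixed block, 23 of the 40 genes (7 higher and 16 lower) kept a difference of at least 1.5-fold in the same direction. Cldn1 went from -0.70 to -0.04, Irf2bp2 from -0.60 to -0.13, A1cf from -0.67 to -0.17 and Celsr1 from -0.79 to -0.19 under the block, whereas Fam222a (-1.31), Acnat2 (-1.13), Lonrf3 (-1.03), Pdk4 (-1.17) and Pnrc1 (-0.84) kept at least 0.80 in size. Within slide 1 and within slide 2, Lonrf3 differed by -1.19 and -0.91 and Fam222a by -0.57 and -1.04, directions that groups without overlap fix. With 1 array left out at a time, 13 of 39 genes apart fell under 1.5-fold at least once and 11 moved by over 1.5 times, most often without mouse 9 or mouse 20. Without mouse 9, Nr1d2 differed by 0.49, Per1 by 0.67, Nfil3 by -0.76, Ppard by -0.35, A1cf by -0.50 and Irf2bp2 by -0.56. Without mouse 20, Nr1d2 differed by 1.36, Wee1 by 0.31, Coq10b by 0.54, Pklr by 0.55, Avpr1a by -0.50, Cldn1 by -0.32 and Ppard by -1.25. Palld and Rtp3, also among the lower genes, differed by -0.34 and -0.25 without mouse 9 and by -0.97 and -1.10 without mouse 20.

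**Figure D3:**
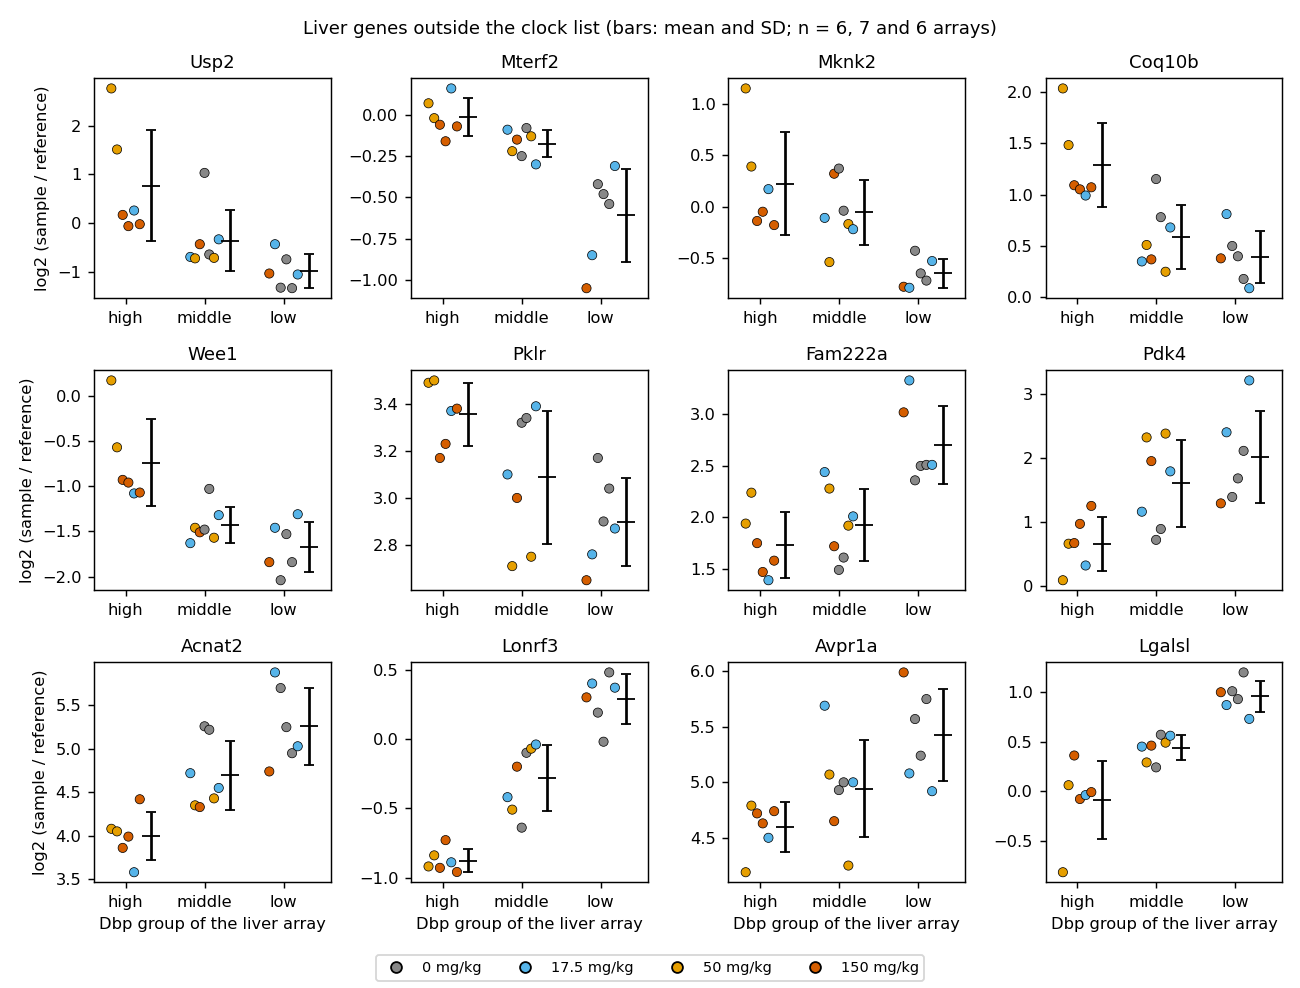
Log2 ratio (sample over reference) of 12 genes outside the clock list in the high, middle and low liver arrays, 1 point per array coloured by dose, with mean and SD. The 2 top points of the high group for Usp2 (2.76 and 1.51) are the D2 mice 15 and 13, and the high points of Lonrf3 lie between -0.96 and -0.73.

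The 17 lists of genes were described by their members, beside a median dose-adjusted difference of -0.01 over all measured genes. In the list of clock-controlled outputs 3 of 33 measured genes were apart and higher (Usp2, Coq10b and Wee1) and 3 apart and lower (Lonrf3, Avpr1a and Clpx), with a median of 0.02. With the slide as a block, Usp2, Coq10b, Wee1 and Clpx (-0.33) differed by less than 1.5-fold. The largest values of this list belonged to genes that overlapped. Rgs16, a regulator of G protein signalling, read between 0.42 and 3.85 in the high and between -0.74 and 3.14 in the low arrays (2.66, SE 1.01). Upp2, a uridine phosphorylase, read 6.02 to 7.66 against 4.63 to 6.49, with the low array of mouse 5 inside the high range. In the list of fatty acid synthesis 1 of 19 genes was apart (Pklr), and the median was 0.23. Acacb (1.08), Fasn (0.81), Acly (0.78) and Acss2 (0.61) overlapped. Fasn, the fatty acid synthase, read 3.41 to 3.99 in the high arrays, and among the low arrays mouse 5 (3.92), mouse 6 (3.46) and mouse 2 (3.42) lay inside that range, whereas mice 20 and 7 read 2.57 and 2.64. In the list of PPAR alpha targets 1 of 25 genes was apart (Pdk4), with a median of -0.19 and a range of -1.35 to 0.46. In the list of glucocorticoid-responsive genes 1 of 22 was apart (Per1, which the clock list also holds), with a median of -0.02.

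No gene was apart in the other 12 lists. The 20 genes of gluconeogenesis and fasting had a median of -0.04, and Ass1 and Fbp1, the 2 with the brightest probes, differed by 0.14 (SE 0.09) and -0.28 (SE 0.36). Cholesterol synthesis and uptake (25 genes) had a median of -0.11, bile acid synthesis and transport (20) -0.09, xenobiotic metabolism (35) -0.06, and targets of the aryl hydrocarbon receptor (7) 0.06. Cyp1a2, the receptor's target with a strong signal in liver, differed by 0.06 (SE 0.10). Cyp3a11, a major drug-metabolizing enzyme, read 8.11 to 9.40 in the high and 8.50 to 10.32 in the low arrays. Heat shock and cold-inducible genes (23) had a median of -0.16, which turned to 0.03 without mice 2 and 7, genes of endoplasmic reticulum stress and the amino acid response (22) -0.04, immediate early genes (19) 0.19, proliferation (21) 0.16, acute phase (21) -0.20, interferon response (21) 0.20, and growth hormone and male-biased genes (20) -0.01. When arrays were centred on their medians in place of loess, the median of all genes moved to -0.52 and those of all 17 lists turned or stayed negative (-0.77 to -0.31), so that the medians above are to be read against the median of all genes.

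Low-group mice 7 and 2 stood apart in the heat shock and cold-inducible list. Their livers had list means of 0.00 and -0.16 (log2 ratio), against -0.79 to -0.42 in the other 17, and for 14 and 3 of the 23 genes they were the highest of all 19 arrays. Hspa1a, an inducible HSP70 chaperone with a near-identical neighbour (Hspa1b) from which its signal may not be separable, read 2.41 and 1.31 in mice 7 and 2 and -0.50 to 0.27 in the other livers. Hsph1, a chaperone of the HSP110 family, read 1.11 and 0.42 against -1.67 to -0.23. The lungs of the same mice read 2.89 and 3.23 for Hspa1a, against -0.34 to 1.31 in the others. Mice 7 and 2 also had the highest liver values of Palld (1.13 and 0.57) and Rtp3 (4.81 and 4.79) and, with mouse 6, of Ppard. Without them, left out after the data were seen, the list's median was 0.03, and the dose-adjusted differences were -0.37 for Palld, -0.45 for Rtp3 and -0.70 for Ppard, against -0.64, -0.65 and -0.77. The part of these 2 mice in the other results was not tested beyond the counts without them.

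**Figure D4:**
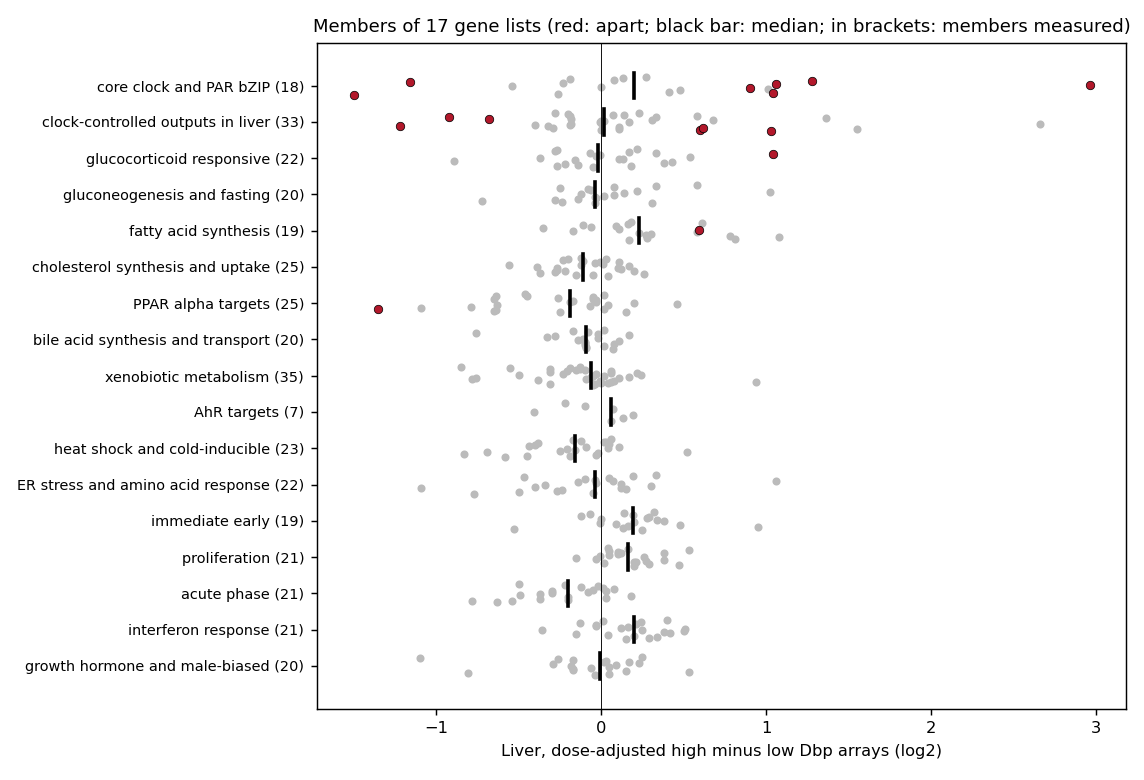
Dose-adjusted high minus low difference (log2) of each measured member of 17 gene lists in liver, 1 point per gene, red where the gene was apart, with the list's median as a black bar and the number of measured members in brackets. The red points sit in 5 lists, and the grey point farthest to the right is Rgs16 at 2.66.

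The lung and forestomach arrays of the same mice were not used in the ranking, and they allowed a test of which genes follow the liver's Dbp level in other organs. For each probe a slope on the liver Dbp value was fitted with dose group as a factor, by limma, and scaled to the distance between the high and low means (3.39 log2 units). In lung (18 arrays) 0 of 31450 probes passed an adjusted p of 0.05 and 1.5-fold (0%), with 1618 (5.14%) at an unadjusted p of 0.05 or less and a smallest adjusted p of 0.701. In forestomach (19 arrays) 0 of 27496 passed (0%), with 4102 (14.9%) at an unadjusted p of 0.05 or less and a smallest adjusted p of 0.326. No gene apart in liver was therefore called in either tissue. Slides were uneven here too. In forestomach, slide 1 held 4 of the 6 low and 1 of the 6 high mice and was far brighter (Cy5 95th percentile 2412 to 6586) than slide 2 (501 to 1158) and slide 3 (278.5 to 684.0), and slide 3 held 4 high and 0 low mice. In lung, slide 1 held 4 low and 0 high and slide 2 held 5 high and 0 low mice. With the slide as a block, 927 lung probes (2.95%) and 447 forestomach probes (1.63%) had an unadjusted p of 0.05 or less.

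In lung, Dbp, Per1, Pdk4, Arntl, Nr1d2, Tef and Nfil3 had the steepest slopes among the genes apart in liver. In forestomach, Pdk4, Cldn1 and Frat1 had steeper slopes than the clock genes apart in liver other than Dbp and Per1. With the slide as a block, these 3 forestomach slopes were -0.02 (SE 0.37), -0.26 (SE 0.30) and -0.21 (SE 0.26), whereas those of Dbp and Nr1d2 were 1.21 (SE 0.42) and 0.75 (SE 0.28). In lung the block left Dbp at 1.28 (SE 0.74), Per1 at 0.52 (SE 0.55), Arntl at -0.72 (SE 0.47) and Nr1d2 at 0.55 (SE 0.33). Dbp had a slope of 1.91 (SE 0.50, limma adjusted p 0.701) in lung and 1.29 (SE 0.29, adjusted p 0.326) in forestomach, Per1 1.41 (SE 0.41) and 1.06 (SE 0.29), Tef 0.76 (SE 0.22) and 0.62 (SE 0.21), Nr1d2 0.84 (SE 0.22) and 0.75 (SE 0.19), and Arntl -1.09 (SE 0.31) and -0.62 (SE 0.18). Nfil3 had -0.76 (SE 0.26) and -0.25 (SE 0.19), and Bhlhe40 0.42 (SE 0.24) and 0.84 (SE 0.24). In the lung the 6 mice of the high group all lay above the 6 of the low group at 0.254% of probes and all below at 0.34%, whatever the fold. Dbp was among the former, with 0.36 to 2.55 against -1.85 to 0.32, and Nfil3 among the latter, with -2.65 to -1.76 against -1.76 to -1.10. In the forestomach the shares were 0.0836% above and 0.211% below, and Nr1d2 was among those above, with -0.24 to 0.73 against -0.86 to -0.29. The other clock genes apart in liver overlapped in both tissues. Of the measured clock genes that overlapped in liver, Nr1d1 and Hlf lay wholly above in lung. Hlf read 1.10 to 2.48 in the lungs of the high and 0.16 to 0.82 in those of the low mice (slope 0.73, SE 0.19, limma adjusted p 0.701), beside a liver difference of -0.23 (SE 0.15), and the difference between the organs was not tested.

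Genes beyond the clock mostly overlapped in the other organs. In lung, 5 of the 6 liver genes that were higher were measured, and 1 of the 5 lay wholly above. This was Wee1, whose high mice read -1.31 to -0.45 and whose low mice read -1.59 to -1.32 (slope 0.44, SE 0.13, limma adjusted p 0.732). All 5 slopes were positive, with a median of 0.30 beside -0.01 over all probes. Usp2 had the largest (0.74, SE 0.35), though the lung arrays of mouse 19 (1.82) and of middle mouse 17 (1.87) exceeded that of mouse 15 (1.78). Of the 27 lower liver genes 24 were measured in lung. None of the 24 lay wholly below, 15 had a negative slope, and their median was -0.05. Pnrc1 had the smallest limma p of these (slope -0.35, SE 0.08, adjusted p 0.701), followed by Lonrf3 (-0.49, SE 0.18). Pdk4 had a slope of 1.33 (SE 0.89) in the opposite direction, and its lung arrays of mice 17 and 19 read 4.48 and 4.14, above the others. The 12 skeletal muscle markers averaged 5.68 and 5.52 in these 2 lung arrays and -0.90 to 0.14 in the others. Without these 2 arrays the slope of Pdk4 was 1.12 (SE 0.53) and that of Usp2 0.67 (SE 0.27).

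In forestomach, 6 higher and 23 lower liver genes beyond the clock were measured, and 0 of them lay wholly above or below in the matching direction. Positive slopes were found for 3 of the 6, with a median of -0.03, and negative slopes for 14 of the 23, with a median of -0.16, beside -0.06 over all probes. Wee1 had 0.68 (SE 0.30, and 0.23, SE 0.39, with the slide as a block), Mterf2 0.31 (SE 0.15) and Usp2 -0.29 (SE 0.27). Among the lower genes Pdk4 had -1.29 (SE 0.42), Cldn1 -1.05 (SE 0.35), Frat1 -0.94 (SE 0.32) and Avpr1a -0.80 (SE 0.41), the last with -0.09 (SE 0.32) under the slide block. Lonrf3, which was lower in all 6 high liver arrays, had 0.40 (SE 0.22), and -0.02 (SE 0.27) under the block. None of these passed the adjusted limit in limma. The 11 glandular stomach markers ranged from 0.58 to 7.36 in the forestomachs of the high and from 0.26 to 7.35 in those of the low mice, and with their mean as a covariate in place of the slide Pdk4 had -1.37 (SE 0.39), Cldn1 -1.11 (SE 0.33) and Frat1 -1.04 (SE 0.25).

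**Figure D5:**
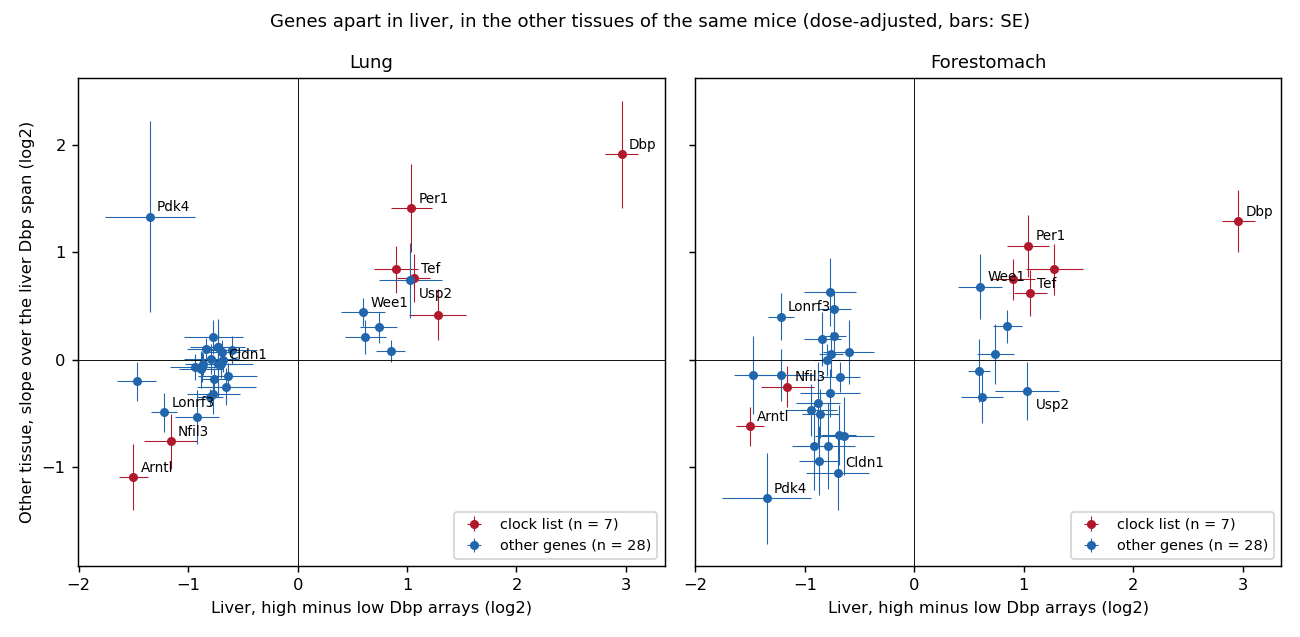
Dose-adjusted difference of genes apart in liver (horizontal, log2) against its slope on liver Dbp over the high-to-low span (vertical, log2) in lung and forestomach of the same mice, with SE bars; clock genes are red. Red points run from Arntl at the lower left (-1.09 in lung) to Dbp at the upper right (1.91), whereas most blue points lie near 0 in lung.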

How the data were processed

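Median spot intensity in Cy5 and Cy3, without background subtraction, was read from the authors' deposited output of Feature Extraction 10.7.3.1, together with its other values, the flags (0 or 1) that mark a spot as saturated, as non-uniform or as well above background. The authors also deposited a table of log2 ratios, made per the study's methods by LOWESS on median signals, and its Dbp values ranked the 19 liver arrays. All other values were computed here. Each array's log2 ratios of median signal were fitted by loess with limma 3.58.1 under R 4.3.3, and no background was subtracted. The 3671 control spots were left out and spots of a probe averaged (55681 probes). Probes were named through RefSeq transcripts (GRCm38.p6), which named 26413 probes (47.4%), and each gene was represented by its probe with the highest mean Cy5 signal in liver.

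The liver difference was the coefficient of the high group in a limma fit of the 12 arrays with dose group as a factor. In lung and forestomach the slope on liver Dbp was fitted by limma (two-sided) over all mice with a liver array, for probes well above background on at least 3 arrays, with Benjamini-Hochberg adjustment over all probes. The fit was tested on simulated data. Array numbers limit the precision, and each array was 1 mouse. The study's methods name MAANOVA, which was not used here. The rule for named genes took every measured clock gene, up to 12 of the largest differences in each direction beyond the clock, the genes apart in each list or else its 2 brightest members, called genes of the other tissues (none) and the genes most and least like Dbp. Some genes that the rule covers are not reported here. Members and lists were chosen with earlier results of these data known. Alternatives were another normalization, slide or column as a covariate, no dose adjustment, other group sizes and limits, and each mouse left out in turn.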

Additional observations from a re-analysis of the deposited data

Results flagged for a closer look

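Within the 2 groups of 6 liver arrays, the array farthest out was set against the range of its group for the genes named, and in 8 of 166 gene and group combinations it stood apart by Dixon's limit. Chance flags about 1 in 20 groups. In the high group, mouse 15 read lowest for Lgalsl (-0.82, next -0.08), Clpx (1.64, next 2.34) and Celsr1 (0.64, next 1.62). Mouse 19 of the high group read 6.33 for Fbp1, the fructose bisphosphatase of gluconeogenesis, where the next array read 7.75, and mouse 16 read 0.74 for Slc10a1, the bile acid importer, where the next read 0.45. In the low group, mouse 2 read highest for Bhlhe40 (-0.01, next -0.76), and mouse 7 read highest for Cyp2e1 (8.20, next 7.25) and lowest for Lpin1 (0.23, next 0.69), a phosphatidate phosphatase. The Cyp2e1 value of mouse 7 was apart only within its group. High mice 13 (8.20) and 16 (8.33) and middle mice 3, 4, 10 and 12 (8.04 to 8.42) read alike.

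Parp16, an ADP-ribosyltransferase of the endoplasmic reticulum, had high and low mice without overlap, in opposite directions, in 2 organs. All 6 high arrays lay below all 6 low arrays in liver (dose-adjusted difference -0.73, SE 0.11), whereas in lung all 6 high mice lay above all 6 low mice (difference of the means 0.31), with -0.73 to -0.28 against -1.06 to -0.78. The difference between the organs was not tested, and the lung slope over all mice was 0.12 (SE 0.12). With the slide as a block that slope was 0.19 (SE 0.18). Of all lung probes, 0.254% had the high mice wholly above the low mice.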

How the results depend on the processing

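Within a tissue, no paired analysis was possible because every mouse gave a single array, and comparisons of organs within the same mice could have been made but were not run. The 40 liver genes apart became 24 under median centring (2 higher and 22 lower, against 11 and 29), 24 under normexp background correction (10 and 14), 25 with the slide as a block, 17 with 7 arrays a group (3 and 14) and 11 at a 2-fold limit (5 and 6). They became 116 without D3 (62 higher and 54 lower) and 57 with 5 arrays a group (26 and 31), where fewer arrays have to be apart. With each mouse left out they numbered 41 to 55, and without mice 13 and 15, an alternative chosen after seeing the data, 50. Without mice 2 and 7, likewise chosen, they numbered 73 (22 higher and 51 lower), 37 of them shared. The dose-adjusted values do not change without mice 13 and 15, because no low array shares their dose. The authors' table gave 39 genes, 34 of them shared. No named gene that was apart changed direction under any alternative run. In lung, where leaving out each mouse gave 0 probes, the count of 0 became 7 without dose adjustment and 15 with the lung's own Dbp as predictor, among which, besides Dbp, 1 and 3 were liver genes apart (Nr1d2, and Arntl, Nfil3 and Nr1d2). In forestomach it stayed at 0 with each mouse left out and became 3 and 3, the latter with 1 liver gene apart besides Dbp (Nr1d2). Each of these 4 counts includes 2 probes of Dbp. Where the tissue's own Dbp was the predictor, these probes were set against Dbp of the same array, so their calls were given in advance. All other alternatives gave 0 in both tissues. The cause of these changes was not tested. Signal over background limits the genes measured: 7 of the 25 clock genes, Per3 and Ciart among them, were not well above background on every array of either group.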
